A study of Drosophila melanogaster with 31 samples.

Results

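Aminoacyl-tRNA synthetases join each amino acid to its own tRNAs, and their genes were followed here in single clones of the *Drosophila* eye disc. The genes were chosen by FlyBase symbol, as the name of an amino acid (or GluPro) followed by RS, with or without a suffix, together with the PheRS subunits. The annotation named 35 such genes. The classes were set by symbol alone, with 15 genes that carry the suffix -m taken as mitochondrial and the 20 without it as cytoplasmic. No -m gene was named for 5 amino acids (Gln, Gly, His, Lys and Thr). Whether a gene without the suffix also makes a mitochondrial enzyme was not determined here. Of the 35 genes, 33 (19 cytoplasmic and 14 mitochondrial) were among the 17559 genes of the count table, and all 33 passed the filter on low counts. The other two, LeuRS and PheRS-m, had no row under their identifiers and are not analysed here. The table also holds identifiers that the annotation does not match, and whether either gene is counted under one of them was not determined, so the counts and sums of both classes leave them out.

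A synthetase recognises its amino acid and the matching tRNAs, and the charged tRNA is what the ribosome uses. Cytoplasmic enzymes serve translation of nuclear messages, whereas the mitochondrial enzymes are encoded in the nucleus, imported into the organelle and serve the few proteins of the mitochondrial genome. Uncharged tRNA activates the kinase Gcn2, which raises translation of the transcription factor crc, the fly ATF4, and in mammals ATF4 is known to drive several synthetase genes. Tsc1 acts in the complex that restrains mTORC1, the kinase complex that raises protein synthesis when amino acids are plentiful, and foxo encodes a transcription factor that is active when insulin signalling is low.

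Each library came from a single clone of roughly 50 cells, cut by laser from the dividing region ahead of the morphogenetic furrow. The Tsc1 foxoRi clones were homozygous for the point mutation Tsc1[Q87X] and expressed RNAi against foxo, the Tsc1 clones carried the mutation without knockdown, the foxoRi clones had the knockdown on an isogenic FRT82 chromosome, and the wt clones had that chromosome without knockdown. Where groups are pooled, Tsc1 clones are those of both genotypes with the mutation (n = 16) and wt clones those of both genotypes without it (n = 13). All clones were made with the MARCM system on FRT82, so that they were homozygous for most of arm 3R, after a heat shock at 36 h after egg laying. RNAi was driven by tub-Gal4, which is active in all cells of a clone, and was held back by Gal80ts until larvae were moved to 30°C for the last 12 h. Clones without knockdown came from siblings kept at 25°C, so the knockdown and the higher temperature are the same contrast. Larvae grew on normal food or under nutrient restriction (NR), a food with 10% of the yeast, and NR larvae were dissected later after egg laying, so food and age cannot be told apart.

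Of 31 libraries, 29 entered the main tests, with 4 in each group except foxoRi under NR (2) and wt on normal food (3). Replicate 3 of foxoRi under NR and replicate 4 of wt on normal food were left out. The 29 had 6877877 to 13316136 counts (median 9724622), of which 27.3% to 55.9% fell on rRNA genes, and 9107 to 14950 genes with a count. Each clone is 1 biological sample, so p-values measure the spread between single clones, and in such material fewer cells of a type and less RNA per cell cannot be told apart. The eye disc markers ey, toy, so, eya, dac, hth and tsh were detected in all 29 libraries. The foxo transcript did not check the knockdown, with 22.6 to 77.9 CPM (median 35.2) in knockdown clones and 24.1 to 70.3 CPM (median 34.2) in clones without it (log2 FC 0.06, edgeR adjusted p = 0.9999). The study likewise saw no fall in foxo transcripts. It judged the knockdown by nuclear FoxO protein staining in Tsc1 mutant clones, and reported it as adequate after the 12 h shift. In a cultured cell line it reported a partial loss of foxo transcripts with a significant loss of protein. For this the study proposed a feedback that activates transcription, or a direct effect on translation. The level of Tsc1 does not check a point mutation and was 13.6 to 42.9 CPM in Tsc1 clones and 13.97 to 42.3 CPM in wt clones. From the reads, the study reported only mutant transcripts at the mutated position in its Tsc1 mutant clones, and showed an example.

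Cytoplasmic synthetase transcripts were the more abundant class. Levels per library are CPM computed from the TMM-normalized library sizes, and to compare genes they were divided by the length of the exons in kb. By this measure the cytoplasmic genes had a median of 16.5 CPM per kb (8.94 to 29.2), against 2.70 CPM per kb (0.909 to 11.3) for the mitochondrial genes. AspRS was the highest at 29.2 CPM per kb, followed by SerRS (28.7) and AlaRS (26.6), the enzymes for aspartate, serine and alanine. These neighbours in the order did not differ beyond their spread between libraries, as their ranges overlapped.

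**Figure D1:**
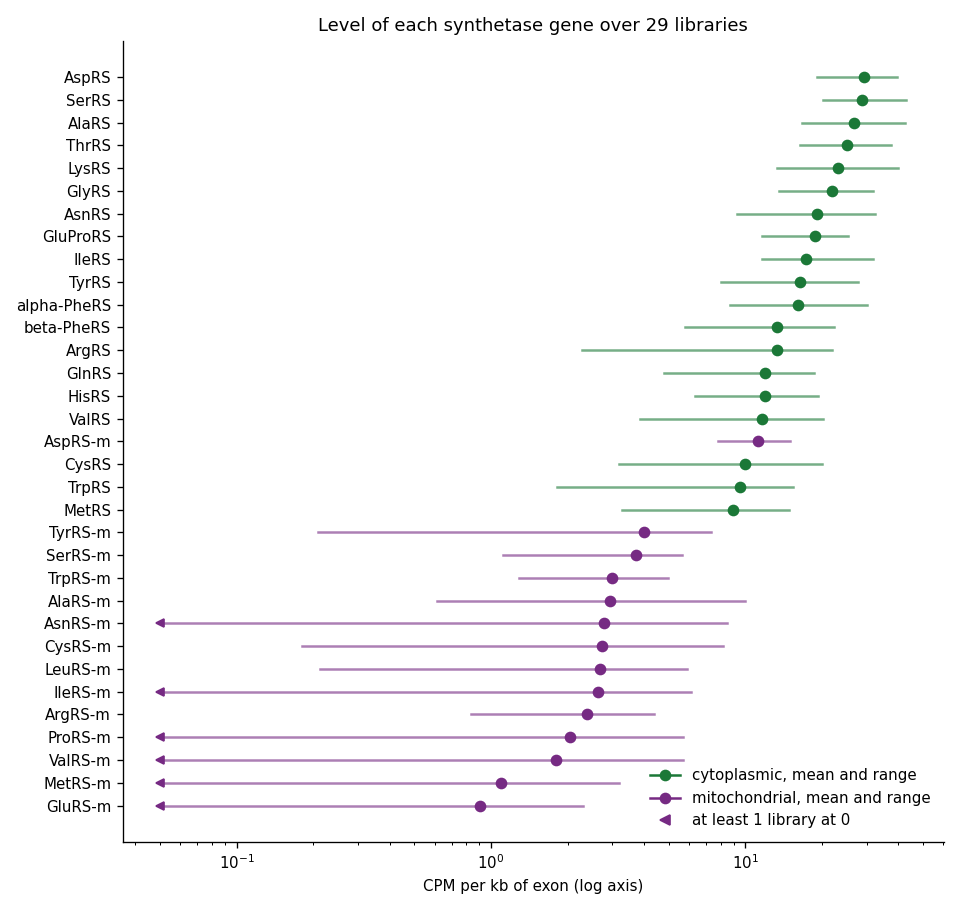
Level of each of the 33 synthetase genes as CPM per kb of exon on a log axis, with points for the mean over 29 libraries and lines for the lowest to the highest library. Apart from AspRS-m at 11.3 CPM per kb, every mitochondrial gene lies below the lowest cytoplasmic gene, MetRS at 8.94 CPM per kb.

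AspRS had 43.5, 84.4, 59.0 and 66.8 CPM in Tsc1 foxoRi, 82.9, 79.1, 63.4 and 61.0 CPM in Tsc1, 69.3 and 65.2 CPM in foxoRi and 74.6, 63.1, 46.0 and 54.0 CPM in wt clones under NR. On normal food it had 64.6, 65.0, 57.1 and 61.4 CPM in Tsc1 foxoRi, 68.4, 66.1, 71.9 and 45.6 CPM in Tsc1, 61.0, 89.1, 62.0 and 62.6 CPM in foxoRi and 75.1, 85.4 and 70.6 CPM in wt clones. No pair of groups compared was apart. An antisense gene, asRNA:CR45141, overlaps 1448 bp of the AspRS exons, and since the strand of the counting is not given, reads of these genes cannot be told apart. The same holds for 905 bp of GluProRS, the fused enzyme for glutamate and proline, and asRNA:CR46092. Other members have smaller overlaps, among them HisRS with Bx on the same strand (255 bp). The largest antisense ones among these were in SerRS-m (356 bp), ArgRS-m (325 bp) and CysRS-m (302 bp).

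MetRS, which also charges the initiator tRNA, was the cytoplasmic gene with the lowest level per kb. Its levels under NR were 22.3, 22.3, 50.7 and 36.4 CPM in Tsc1 foxoRi, 34.8, 27.9, 26.0 and 33.5 CPM in Tsc1, 24.1 and 19.4 CPM in foxoRi and 24.3, 34.4, 11.2 and 33.9 CPM in wt clones. On normal food they were 44.0, 30.2, 27.8 and 29.3 CPM in Tsc1 foxoRi, 33.8, 49.6, 32.5 and 19.4 CPM in Tsc1, 35.2, 19.9, 31.6 and 32.8 CPM in foxoRi and 33.2, 35.3 and 26.2 CPM in wt clones. The groups overlapped in every comparison of MetRS.

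AspRS-m, the mitochondrial enzyme for aspartate, supplied 27.5% to 50.4% (median 38.4%) of the summed mitochondrial level. Under NR it had 56.6, 50.9, 43.7 and 58.2 CPM in Tsc1 foxoRi, 60.8, 53.1, 50.3 and 53.2 CPM in Tsc1, 36.9 and 42.3 CPM in foxoRi and 49.2, 49.7, 54.0 and 45.9 CPM in wt clones. On normal food the values were 62.2, 51.7, 41.5 and 47.6 CPM in Tsc1 foxoRi, 66.0, 54.3, 46.7 and 48.8 CPM in Tsc1, 49.4, 47.7, 36.1 and 36.5 CPM in foxoRi and 48.8, 34.4 and 66.0 CPM in wt clones. Under NR both foxoRi libraries lay below every library of the other groups, and on normal food no pair of groups compared was apart.

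GluRS-m, the mitochondrial enzyme for glutamate, was the least abundant member, with at most 3 counts in 6 of the 29 libraries. It had 2.34, 1.27, 0.107 and 2.48 CPM in Tsc1 foxoRi, 2.81, 1.24, 3.31 and 1.86 CPM in Tsc1, 0.196 and 0.461 CPM in foxoRi and 2.75, 1.64, 1.05 and 1.25 CPM in wt clones under NR. On normal food it had 0, 2.79, 1.54 and 1.30 CPM in Tsc1 foxoRi, 0.436, 2.07, 3.90 and 2.02 CPM in Tsc1, 1.92, 0, 2.21 and 0 CPM in foxoRi and 1.77, 0 and 2.11 CPM in wt clones. The libraries at 0 were all on normal food, in 3 groups, and under NR both foxoRi libraries lay below every wt library.

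The spread between clones of a group was larger for the mitochondrial genes. The SD of the log2 level within groups had a median of 0.70 over the mitochondrial and 0.34 over the cytoplasmic genes, whose median counts per library were 65 and 360. ThrRS, the enzyme for threonine, varied least (0.22) and IleRS-m, the mitochondrial enzyme for isoleucine, varied most (0.89). ThrRS had 71.6, 88.0, 54.3 and 82.99 CPM in Tsc1 foxoRi, 108, 80.7, 76.4 and 79.8 CPM in Tsc1, 68.9 and 72.6 CPM in foxoRi and 72.6, 69.1, 47.5 and 70.9 CPM in wt clones under NR. On normal food ThrRS had 69.9, 80.3, 78.8 and 82.5 CPM in Tsc1 foxoRi, 67.2, 67.7, 78.1 and 60.8 CPM in Tsc1, 55.0, 58.3, 56.1 and 79.2 CPM in foxoRi and 70.1, 89.7 and 73.0 CPM in wt clones. Under NR every Tsc1 library lay above every wt library, and the other pairs of groups overlapped.

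IleRS-m had 13.4, 8.26, 0 and 7.18 CPM in Tsc1 foxoRi, 6.70, 3.94, 8.64 and 9.57 CPM in Tsc1, 9.52 and 4.52 CPM in foxoRi and 7.27, 8.38, 2.39 and 3.60 CPM in wt clones under NR. The values on normal food were 7.71, 7.28, 9.55 and 6.29 CPM in Tsc1 foxoRi, 6.538, 8.27, 8.39 and 7.79 CPM in Tsc1, 5.37, 17.8, 12.0 and 1.68 CPM in foxoRi and 8.09, 13.9 and 7.40 CPM in wt clones. The 4 Tsc1 foxoRi libraries under NR alone spanned 0 to 13.4 CPM, and no pair of groups compared was apart.

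The comparison of Tsc1 with wt asked how loss of Tsc1 changed these genes, and the 4 pairs of groups (each food, with and without knockdown) were averaged in 1 edgeR test. CysRS, the only cytoplasmic enzyme for cysteine, rose 2.26-fold in Tsc1 clones (log2 FC 1.18, SE 0.17, edgeR adjusted p = 9.49e-05), and AlaRS-m, which charges the mitochondrial tRNA for alanine, rose 2.13-fold (log2 FC 1.09, SE 0.27, edgeR adjusted p = 0.0148). Calls required an adjusted p below 0.2 together with a log2 FC over 0.8 in size. These 2 of the 33 members were called, against 7.51% of all 13524 tested genes, so the share of members called is near that of all genes.

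Most other cytoplasmic members had smaller positive values. With no demand on the fold, 11 of the 33 members passed the adjusted p, all of them higher in Tsc1 clones, against 10.1% of all tested genes. These were 10 cytoplasmic genes and AlaRS-m. ValRS, for valine, was 1.61-fold higher (log2 FC 0.68, SE 0.14, adjusted p = 0.0033), and the subunits of the phenylalanine enzyme, alpha-PheRS and beta-PheRS, were 1.53-fold (log2 FC 0.62, SE 0.14, adjusted p = 0.00806) and 1.49-fold higher (log2 FC 0.57, SE 0.15, adjusted p = 0.0173). GlnRS for glutamine had a log2 FC of 0.55 (SE 0.16, adjusted p = 0.0329) and AsnRS for asparagine one of 0.53 (SE 0.14, adjusted p = 0.0194). GlyRS for glycine, SerRS, AlaRS and IleRS for isoleucine had log2 FC of 0.32 to 0.37 with adjusted p of 0.0531, 0.0819, 0.140 and 0.168. At an unadjusted p under 0.05, 10 cytoplasmic and 3 mitochondrial members were higher by edgeR, against 12.7% of all tested genes, and 0 were lower (19.2% of all tested genes passed in either direction).

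Over the class, 18 of 19 cytoplasmic members had a log2 FC above 0 (median 0.32), as had 11 of 14 mitochondrial members (median 0.41) and 61.4% of all tested genes (median 0.15). AspRS was the only cytoplasmic member below 0 (log2 FC −0.06, SE 0.11), and TrpRS for tryptophan was at 0.00 (SE 0.22). The lowest value was that of ValRS-m, the mitochondrial valine enzyme, at −0.49 (adjusted p = 0.529). A log2 FC above 0 in each of the 4 pairs was found for 10 of 19 cytoplasmic members (AlaRS, ArgRS, CysRS, GlnRS, GlyRS, MetRS, SerRS, ValRS, alpha-PheRS and beta-PheRS) and 7 of 14 mitochondrial members (AlaRS-m, AsnRS-m, AspRS-m, GluRS-m, LeuRS-m, ProRS-m and TyrRS-m), against 13.1% of all tested genes.

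**Figure D2:**
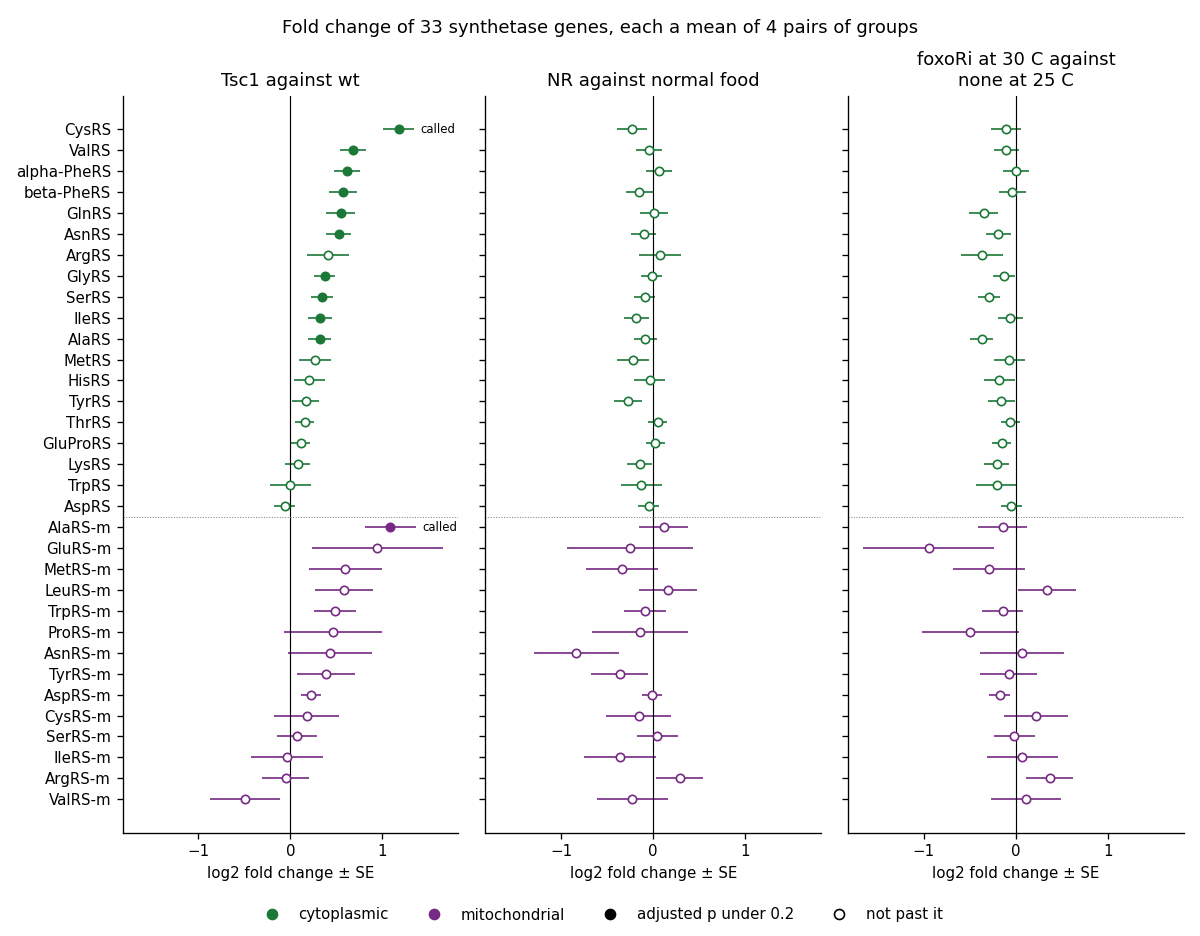
Log2 fold change ± SE of the 33 genes in 3 comparisons, each a mean of 4 pairs of groups, for Tsc1 against wt (left), NR against normal food (middle) and foxo knockdown at 30°C against none at 25°C (right). Filled points passed an adjusted p of 0.2, which 11 members did in the left panel and 0 in the others, and the word called marks CysRS and AlaRS-m.

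In CysRS, which lies on chromosome 2R at 16143147 to 16145906 (BDGP6.54), the difference was visible in single clones. Under NR, CysRS had 27.2, 31.9, 33.5 and 37.6 CPM in Tsc1 foxoRi clones, against 11.6 and 7.84 CPM in foxoRi clones. Without knockdown under NR it had 32.0, 20.8, 30.2 and 31.6 CPM in Tsc1 clones, against 22.7, 16.7, 15.8 and 11.1 CPM in wt clones. The Tsc1 foxoRi and foxoRi libraries did not overlap, whereas Tsc1 replicate 2 fell within the range of wt.

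On normal food, CysRS had 49.3, 21.8, 45.7 and 32.1 CPM in Tsc1 foxoRi clones, against 23.7, 11.8, 13.2 and 12.7 CPM in foxoRi clones. Clones without knockdown on normal food had 26.6, 38.5, 37.2 and 19.8 CPM with Tsc1 lost, against 19.9, 11.3 and 18.2 CPM in wt. Both pairs overlapped by a single library of each side. Over all groups, CysRS averaged 32.2 ± 8.25 CPM in Tsc1 clones (SD, n = 16) and 15.1 ± 4.85 CPM in wt clones (SD, n = 13), with 13 of 16 Tsc1 libraries above the highest wt library.

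AlaRS-m (3L, 5146098 to 5149852) was a low gene, with 16 to 301 counts per library. Under NR, AlaRS-m had 17.3, 18.9, 32.3 and 10.51 CPM in Tsc1 foxoRi clones, against 6.28 and 2.86 CPM in foxoRi clones. The NR clones without knockdown had 12.9, 9.97, 14.3 and 10.46 CPM in Tsc1, against 6.28, 6.84, 3.53 and 2.49 CPM in wt. Under NR, then, no Tsc1 library overlapped with its counterpart group.

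On normal food, AlaRS-m had 1.99, 11.4, 7.57 and 11.4 CPM in Tsc1 foxoRi clones, against 9.85, 2.27, 3.78 and 3.77 CPM in foxoRi clones. It had 7.63, 12.4, 13.2 and 8.29 CPM in Tsc1 clones, against 7.34, 12.5 and 7.08 CPM in wt clones. Both pairs overlapped widely, and the lowest of all 29 values was that of Tsc1 foxoRi replicate 1. Over all groups, AlaRS-m averaged 12.5 ± 6.59 CPM in Tsc1 clones (SD, n = 16) and 5.76 ± 3.06 CPM in wt clones (SD, n = 13), and 15 of 16 Tsc1 libraries were above the wt median.

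ValRS (2R, 13198850 to 13202709) had 37.6, 52.0, 41.1 and 48.6 CPM in Tsc1 foxoRi clones, against 29.0 and 30.8 CPM in foxoRi clones under NR. Without knockdown it had 69.0, 38.8, 43.6 and 55.0 CPM in Tsc1 clones, against 41.8, 29.5, 13.2 and 25.6 CPM in wt clones under NR. The first pair did not overlap, and in the second 1 Tsc1 library lay below the highest wt library. On normal food, ValRS had 44.0, 46.6, 45.2 and 42.5 CPM in Tsc1 foxoRi clones, against 23.4, 28.3, 27.5 and 38.0 CPM in foxoRi clones. The values without knockdown were 58.4, 54.4, 55.9 and 32.6 CPM in Tsc1 clones, against 33.5, 32.1 and 31.4 CPM in wt clones. Again the knockdown pair did not overlap, and 1 Tsc1 library was among the wt values.

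The gene alpha-PheRS (X, 8143904 to 8145602) had 30.8, 43.3, 39.5 and 28.0 CPM in Tsc1 foxoRi clones, against 22.7 and 16.8 CPM in foxoRi clones under NR. The corresponding levels without knockdown were 44.7, 35.6, 23.9 and 29.8 CPM in Tsc1 clones, against 22.4, 28.4, 19.7 and 16.4 CPM in wt clones. The first of these pairs was apart. On normal food, alpha-PheRS had 51.3, 31.0, 32.6 and 26.0 CPM in Tsc1 foxoRi clones, against 23.3, 14.8, 21.2 and 17.3 CPM in foxoRi clones. In clones without knockdown it had 23.6, 21.6, 32.4 and 27.6 CPM with Tsc1 lost, against 27.2, 18.04 and 27.2 CPM in wt. Here too only the knockdown pair was apart. Its partner beta-PheRS had 21.0 to 44.0 CPM (mean 30.7) in Tsc1 clones and 11.4 to 28.7 CPM (mean 20.7) in wt clones, and 9 of 16 Tsc1 libraries lay above the highest wt library.

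**Figure D3:**
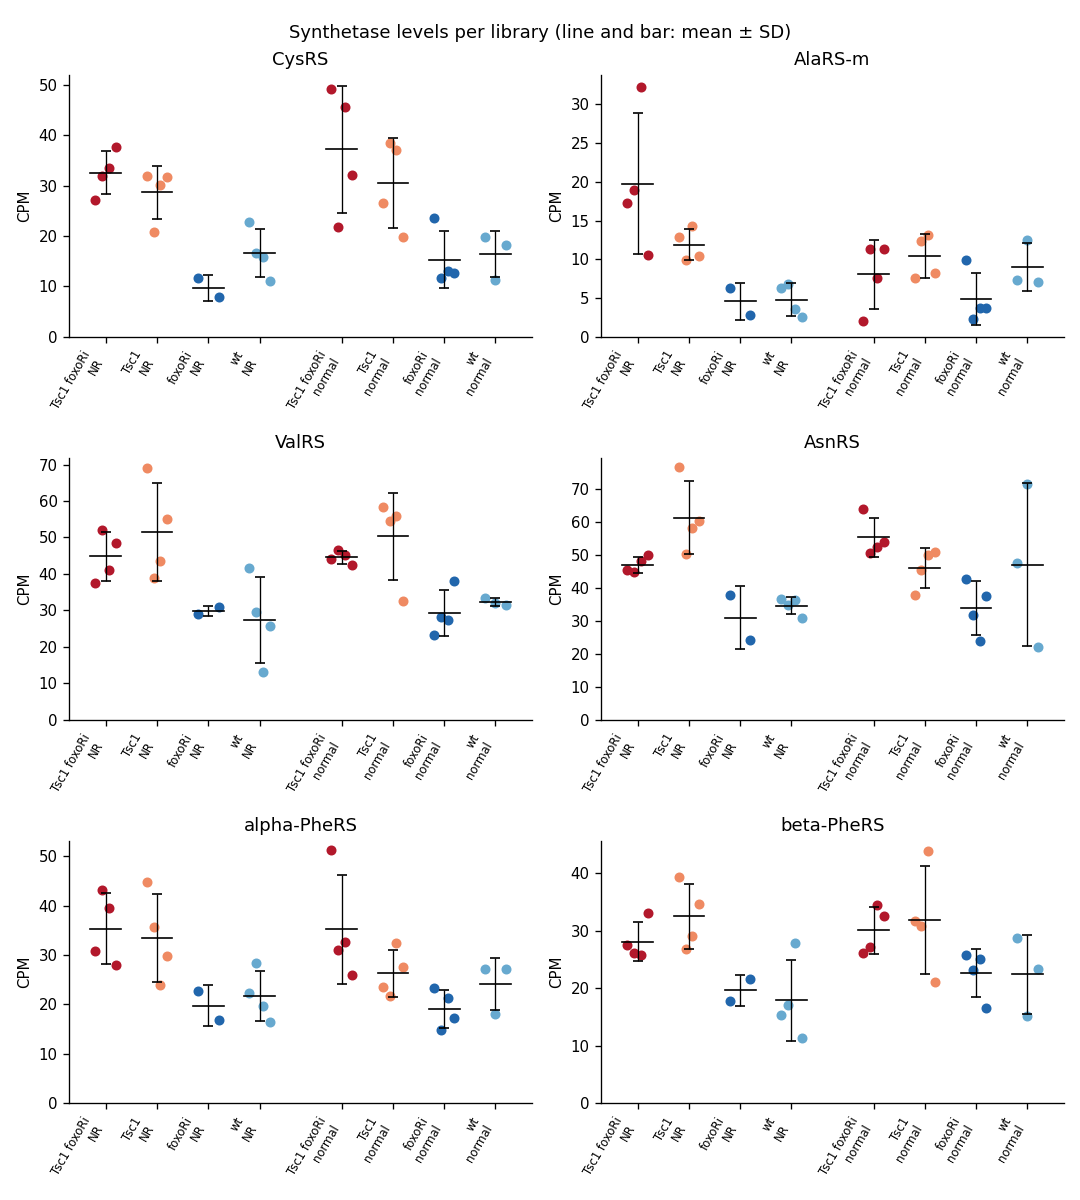
CPM of 6 synthetase genes in each of the 29 libraries, by group, with NR groups in the left block of each panel and normal food in the right, and with lines and bars for the mean ± SD. In CysRS the Tsc1 groups lie at 19.8 to 49.3 CPM and the groups without the mutation at 7.84 to 23.7 CPM.

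Taken singly, few pairs of groups called a member. In Tsc1 foxoRi against foxoRi, CysRS rose under NR (log2 FC 1.74, SE 0.40, edgeR adjusted p = 0.0905) and on normal food (log2 FC 1.28, SE 0.30, edgeR adjusted p = 0.0774). It was the only member called in either pair, against 1.18% of all tested genes under NR and 0.791% on normal food, and DESeq2 called 3 members under NR (CysRS, alpha-PheRS and AlaRS-m), against 12.9% of the genes it gave an adjusted p, and 2 on normal food (CysRS and alpha-PheRS), against 3.47%. At an unadjusted p under 0.05, edgeR had 3 members under NR, against 13% of all tested genes, and 8 on normal food, against 11.1%, all of them higher. The NR call rests on 2 foxoRi libraries and was lost without replicate 1 (log2 FC 1.95, adjusted p = 0.4045) or replicate 2 (1.39, adjusted p = 0.7312), where the 1 library left is assumed to vary like the other groups. The call on normal food was lost without foxoRi replicate 2 (adjusted p = 0.2786) or 3 (0.2058) and without Tsc1 foxoRi replicate 1 (0.255) or 3 (0.2695). AlaRS-m had a log2 FC of 2.11 in the NR pair (SE 0.66, adjusted p = 0.214).

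In Tsc1 against wt without knockdown, edgeR called 0 members under NR, against 0.665% of all tested genes, and 0 on normal food, against 1.21%. At an unadjusted p under 0.05, 9 members were higher under NR (ValRS, AsnRS, beta-PheRS, CysRS, alpha-PheRS, GlyRS, ThrRS, AlaRS-m and TrpRS-m) and 2 on normal food (CysRS and ValRS), and 0 were lower. Over all tested genes, 5.81% were higher at this p under NR and 3.42% on normal food, with 8.39% and 10.7% in either direction. DESeq2 called 2 members under NR (ValRS and beta-PheRS), against 3.14% of the genes it gave an adjusted p, and 0 on normal food, against 3.6%. The lowest adjusted p under NR was that of ValRS (log2 FC 0.91, SE 0.26, adjusted p = 0.229). All 19 cytoplasmic members had a log2 FC above 0 under NR (median 0.46, against 0.20 over all tested genes), as had 12 of 19 on normal food (median 0.12, against −0.09). The medians of the knockdown pairs were 0.41 under NR, against 0.47 over all tested genes, and 0.38 on normal food, against −0.02.

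Complete separation of the libraries was counted for each pair as well. Under NR, every Tsc1 library was above every wt library for 5 members (AlaRS, AsnRS, ThrRS, TyrRS and AlaRS-m), against 4.16% of all tested genes. On normal food this held for GlnRS alone, against 3.35%, while ValRS-m lay wholly below wt. The share of all tested genes wholly below was not counted. With knockdown under NR it held for 8 members (AsnRS, CysRS, ValRS, alpha-PheRS, beta-PheRS, AlaRS-m, AspRS-m and MetRS-m), against 10.1%, where foxoRi had only 2 libraries. With knockdown on normal food it held for 6 members, all cytoplasmic (AsnRS, GlnRS, GluProRS, ValRS, alpha-PheRS and beta-PheRS), against 3.24%.

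Summed over the 19 cytoplasmic genes, the level was 972 ± 129 CPM in Tsc1 clones (SD, n = 16, 760.0 to 1286 CPM) and 790.4 ± 99.0 CPM in wt clones (SD, n = 13, 670.4 to 1023 CPM). The sum over the 14 mitochondrial genes was 140.2 ± 9.85 CPM in Tsc1 clones and 117 ± 17.1 CPM in wt clones. The ratio of the cytoplasmic to the mitochondrial sum was 6.95 ± 0.915 in Tsc1 and 6.86 ± 1.00 in wt clones (SD). Without AspRS-m, the mitochondrial sum had a median of 86.3 CPM in Tsc1 and 73.7 CPM in wt clones. On normal food, the sums of wt clones without knockdown (872 to 1023 CPM) lay within those of Tsc1 clones (802 to 1083 CPM).

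**Figure D4:**
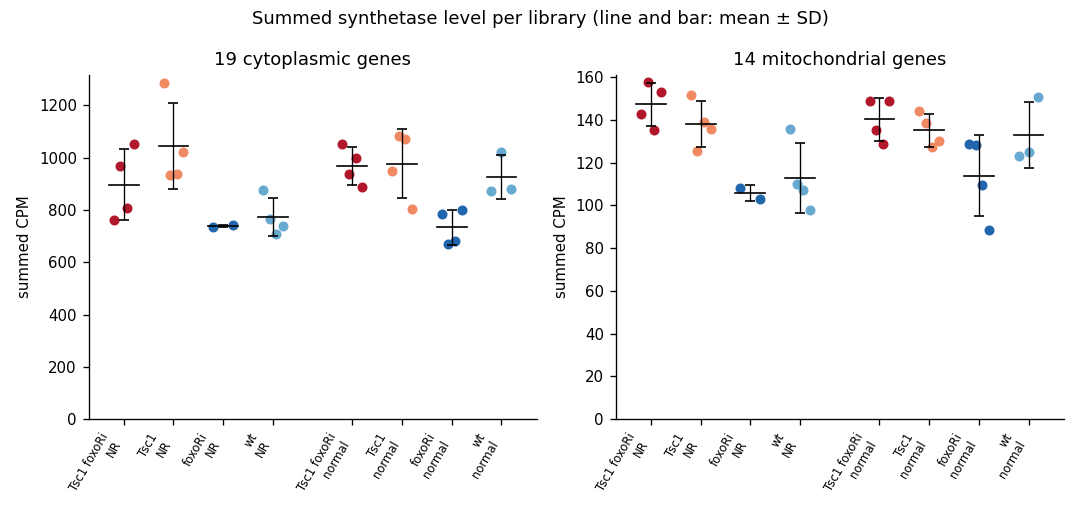
Summed CPM of the 19 cytoplasmic genes (left) and the 14 mitochondrial genes (right) in each library, by group, with lines and bars for the mean ± SD. The cytoplasmic sum averaged 897 CPM in Tsc1 foxoRi and 1045 CPM in Tsc1 clones under NR, against 739 CPM in foxoRi and 772 CPM in wt clones.

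Cytoplasmic and mitochondrial enzymes for the same amino acid could be set side by side in 13 pairs, with GluProRS entered once for each of its amino acids. In 9 of the 13 both log2 FC were above 0, and in 7 the mitochondrial one was the higher. CysRS had 1.18 (SE 0.17) against 0.18 (SE 0.35) for CysRS-m, and AlaRS had 0.32 (SE 0.13) against 1.09 (SE 0.27) for AlaRS-m. For valine, ValRS had 0.68 (SE 0.14) and ValRS-m −0.49 (SE 0.38). The members called were thus on opposite sides of their pairs.

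By structure, the 8 cytoplasmic genes with only a class I catalytic domain had a median log2 FC of 0.36 in Tsc1 clones, and 4 of them passed the adjusted p. The 10 with only a class II domain had a median of 0.33, and 6 passed. The 7 genes whose mammalian products sit in the multi-synthetase complex had a median of 0.27, with 2 past the adjusted p, and the 12 others had a median of 0.36, with 8 past it. By chromosome arm, the medians over both classes were 0.11 for the 7 members on 3R, the arm made homozygous in all clones, 0.31 for the 4 on X, 0.32 for the 5 on 2L, 0.39 for the 7 on 2R and 0.42 for the 10 on 3L. These groupings are descriptions without a test.

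Photoreceptor, glial and muscle markers differed in their pooled medians between Tsc1 and wt clones, while the pooled ranges overlapped. The pair without knockdown on normal food had the opposite order, and each other pair had the order of the pooled medians. In that pair the medians in Tsc1 and wt clones were 91.15 and 66.6 CPM for photoreceptor, 39.57 and 28.35 CPM for glial and 7.85 and 15.3 CPM for muscle markers. The photoreceptor markers elav, ninaE, chp and gl summed to 36.8 to 911 CPM (median 68.8) in Tsc1 clones and 46.0 to 901 CPM (median 234) in wt clones, and ninaE, the rhodopsin of mature photoreceptors, was at 0 in 19 of 29 libraries. The log2 of this sum plus 1 was taken as a covariate. With it, the log2 FC in the mean of 4 pairs was 0.96 for CysRS (edgeR adjusted p = 0.000596). For AlaRS-m it was 1.03 (edgeR adjusted p = 0.0423), so both remained called. In the single pairs the covariate took CysRS to 1.27 (adjusted p = 0.440) under NR and 0.96 (adjusted p = 0.256) on normal food, and the call was lost in both. Without the 6 libraries above 400 CPM of these markers, CysRS was at 1.11 (adjusted p = 0.00251) and AlaRS-m at 0.95 (adjusted p = 0.167) in the mean, and CysRS was not called in the pair on normal food (1.19, adjusted p = 0.230). The NR pair then had 1 foxoRi library, which is assumed to vary like the other groups (1.46, adjusted p = 0.692).

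Among the 15 libraries with photoreceptor markers below 100 CPM, CysRS had 26.6 to 49.3 CPM (median 33.5, n = 11) in Tsc1 clones and 11.3 to 22.7 CPM (median 16.96, n = 4) in wt clones. In the 6 libraries above 400 CPM it had 19.8 and 20.8 CPM in Tsc1 clones and 7.84 to 16.7 CPM (n = 4) in wt clones. CysRS did not overlap between the genotypes in either set. AlaRS-m overlapped below 100 CPM of markers, with 1.99 to 32.3 CPM in Tsc1 clones and 3.53 to 12.5 CPM in wt clones, and was apart above 400 CPM, with 8.29 and 9.97 CPM in Tsc1 clones and 2.27 to 6.84 CPM in wt clones. The 3 glial markers repo, moody and loco summed to a median of 36.1 CPM (7.08 to 83.2) in Tsc1 clones and 60.7 CPM (25.5 to 173) in wt clones. Most of this sum was loco, with a median of 38.9 CPM over all libraries. The medians of moody and repo were 0.93 and 0.256 CPM, and repo was at 0 in 9 libraries. The 4 muscle markers Mhc, Act57B, Mlc2 and TpnC73F summed to a median of 17.4 CPM (2.40 to 47.4) in Tsc1 clones and 6.06 CPM (3.04 to 17.4) in wt clones. The part of glia and muscle in the results was not tested.

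The 5 fat body markers and the 6 salivary gland markers together passed 100 CPM in 3 libraries, all of Tsc1 genotypes under NR (Tsc1 replicates 3 and 4 and Tsc1 foxoRi replicate 3). Fat body markers (Lsp1alpha, Lsp1beta, Lsp2, Fbp1 and Fbp2) summed to 0.414 to 2830 CPM in Tsc1 and 1.16 to 57.9 CPM in wt clones, and Fbp2 was at 0 in 13 libraries. Salivary gland markers (fkh and 5 Sgs genes) summed to 0 to 545 CPM in Tsc1 and 0.0963 to 3.97 CPM in wt clones, and Sgs5 was at 0 in 23 libraries. The highest AlaRS-m level (32.3 CPM) was in the library with the most fat body RNA, Tsc1 foxoRi replicate 3 under NR. Without the 3 libraries, the log2 FC was 0.96 for AlaRS-m (edgeR adjusted p = 0.0585) and 1.12 for CysRS (adjusted p = 0.000623), and the pair calls of CysRS stood. A run with the log2 number of genes per library as a covariate gave a log2 FC of 1.11 for CysRS and 0.91 for AlaRS-m, both called. That run and those with markers were chosen after the data were seen.

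**Figure D5:**
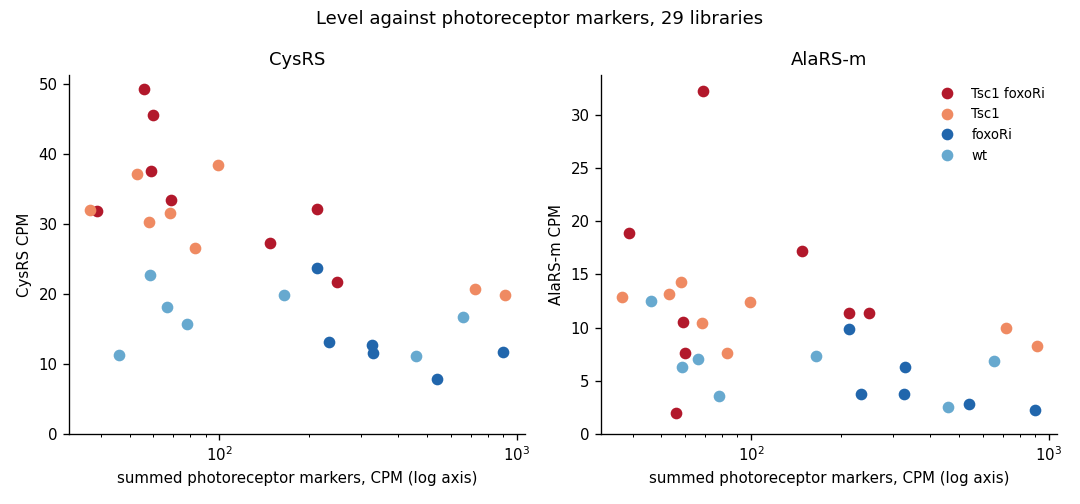
CPM of CysRS (left) and AlaRS-m (right) against the summed CPM of 4 photoreceptor markers (log axis) in 29 libraries, coloured by genotype. Below 100 CPM of markers, CysRS lies at 26.6 to 49.3 CPM in Tsc1 genotypes and 11.3 to 22.7 CPM in wt genotypes.

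Food made no member pass the test. In the mean of 4 pairs, edgeR called 0 members for NR against normal food, against 0.104% of all tested genes. DESeq2 called 0, against 0.687% of the genes it gave an adjusted p. At an unadjusted p under 0.05, edgeR had 0 members (6.91% of all tested genes). The smallest p were those of TyrRS for tyrosine (log2 FC −0.27, SE 0.15, adjusted p = 0.795), AsnRS-m for mitochondrial asparagine (−0.83, SE 0.46, adjusted p = 0.795) and CysRS (−0.23, SE 0.16, adjusted p = 0.929). Of the cytoplasmic members 14 of 19 were below 0 (median −0.08) and of the mitochondrial ones 10 of 14 (median −0.15), against a median of 0.05 over all tested genes. Photoreceptor markers had a median of 73.6 CPM under NR and 165.8 CPM on normal food. With them as a covariate 0 members were called, and the share of all tested genes called in that fit is not given here.

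TyrRS had 30.6, 40.7, 22.4 and 27.0 CPM under NR, against 14.2, 41.3, 27.2 and 28.5 CPM on normal food, in Tsc1 foxoRi clones. In Tsc1 clones it had 35.6, 30.3, 28.8 and 33.5 CPM under NR, against 25.3, 35.9, 32.4 and 30.2 CPM on normal food. Foods overlapped in both genotypes. In foxoRi clones TyrRS had 23.6 and 19.7 CPM under NR, against 31.7, 35.5, 22.9 and 27.3 CPM on normal food. In wt clones it had 28.0, 26.7, 16.7 and 15.7 CPM under NR, against 28.4, 36.5 and 49.3 CPM on normal food. Only the wt groups were apart, with every NR library the lower (log2 FC −0.81, SE 0.30, edgeR adjusted p = 0.868).

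AsnRS-m had 0.123, 2.38, 2.25 and 4.96 CPM under NR, against 12.6, 4.42, 5.71 and 6.09 CPM on normal food, in Tsc1 foxoRi clones. In Tsc1 clones it had 4.35, 3.09, 5.79 and 2.39 CPM under NR, against 4.36, 6.52, 3.90 and 5.26 CPM on normal food. Its level in foxoRi clones was 3.73 and 1.02 CPM under NR, against 8.19, 6.04, 3.65 and 2.10 CPM on normal food. These low values overlapped in each genotype. In wt clones AsnRS-m had 4.74, 2.89, 0 and 2.91 CPM under NR, against 2.97, 1.22 and 5.81 CPM on normal food.

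By genotype, edgeR called 0 members for NR against normal food in Tsc1 foxoRi clones (1.55% of all tested genes), Tsc1 clones (0.0444%), foxoRi clones (0%) and wt clones (0%). At an unadjusted p under 0.05 there were 2 in Tsc1 foxoRi (LysRS for lysine at −0.55 and AlaRS-m at 1.28), 0 in Tsc1, 0 in foxoRi and 1 in wt (TyrRS). The shares of all tested genes at this p were 11.1% in Tsc1 foxoRi, 9.04% in Tsc1, 3.87% in foxoRi and 5.33% in wt clones. DESeq2 called AlaRS-m in Tsc1 foxoRi clones, against 4.2% of the genes it gave an adjusted p. It called 0 members in Tsc1 (0.553%), foxoRi (0.468%) and wt clones (0.234%). The Tsc1 effect without knockdown was compared between foods directly, and edgeR called 0 members (0.118% of all tested genes). AsnRS (0.85), TyrRS (0.86), ThrRS (0.59) and TrpRS-m (1.39) had an unadjusted p under 0.05 (9.17% of all tested genes). The smallest edgeR adjusted p was 0.4996. DESeq2 called 0, against 0.762% of the genes it gave an adjusted p.

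Knockdown of foxo at 30°C, against none at 25°C, called 0 members by edgeR in the mean of 4 pairs (0.902% of all tested genes). DESeq2 called 0 as well, against 2.11% of the genes it gave an adjusted p. At an unadjusted p under 0.05 there were 3, all lower, against 10.8% of all tested genes, namely AlaRS (log2 FC −0.37, SE 0.13, adjusted p = 0.230), SerRS (−0.29, SE 0.12, adjusted p = 0.338) and GlnRS (−0.35, SE 0.15, adjusted p = 0.398). The log2 FC was below 0 for 18 of 19 cytoplasmic members (median −0.15, against 0.01 over all tested genes) and for 8 of 14 mitochondrial members (median −0.04). The SD of the log2 level within groups was 0.30 for AlaRS, 0.26 for SerRS and 0.38 for GlnRS. The photoreceptor markers had a median of 213.5 CPM in knockdown clones and 78.2 CPM in clones without it, and with these markers as a covariate AlaRS was at −0.33 (adjusted p = 0.295).

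AlaRS under NR had 62.8, 76.0, 62.5 and 104 CPM in Tsc1 foxoRi clones, against 139, 108, 97.9 and 117 CPM in Tsc1 clones, and 64.8 and 58.8 CPM in foxoRi clones, against 92.2, 87.1, 76.6 and 79.7 CPM in wt clones. On normal food AlaRS had 114, 86.7, 90.0 and 79.1 CPM in Tsc1 foxoRi clones, against 79.2, 102, 120.1 and 90.9 CPM in Tsc1 clones, and 95.4, 68.5, 60.8 and 56.5 CPM in foxoRi clones, against 86.9, 129 and 55.0 CPM in wt clones. The knockdown group was wholly below its counterpart only in clones without the mutation under NR.

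SerRS under NR had 48.1, 56.6, 45.4 and 60.1 CPM in Tsc1 foxoRi clones, against 82.3, 57.7, 62.3 and 54.2 CPM in Tsc1 clones, and 38.5 and 46.2 CPM in foxoRi clones, against 56.8, 53.7, 40.4 and 48.6 CPM in wt clones. On normal food SerRS had 61.2, 56.5, 59.5 and 42.1 CPM in Tsc1 foxoRi clones, against 74.6, 80.5, 78.9 and 47.0 CPM in Tsc1 clones, and 40.0, 38.5, 38.5 and 60.4 CPM in foxoRi clones, against 49.0, 62.8 and 48.7 CPM in wt clones. All 4 pairs of SerRS overlapped.

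GlnRS under NR had 26.1, 36.0, 13.51 and 38.0 CPM in Tsc1 foxoRi clones, against 45.6, 34.6, 37.4 and 34.8 CPM in Tsc1 clones, and 23.3 and 19.5 CPM in foxoRi clones, against 37.8, 21.3, 19.0 and 30.6 CPM in wt clones. On normal food GlnRS had 40.2, 34.4, 28.4 and 28.7 CPM in Tsc1 foxoRi clones, against 44.6, 31.3, 37.6 and 35.6 CPM in Tsc1 clones, and 25.1, 16.8, 11.7 and 23.1 CPM in foxoRi clones, against 25.9, 30.7 and 21.8 CPM in wt clones. The 4 pairs of GlnRS overlapped as well.

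In single pairs, edgeR called 0 members for Tsc1 foxoRi against Tsc1 under NR (0.873% of all tested genes) and on normal food (0.0592%). It also called 0 for foxoRi against wt under NR (0%) and on normal food (0.0813%). DESeq2 called 0 in all 4, against 2.37%, 0.542%, 0.39% and 2.18% of the genes it gave an adjusted p, in this order. At an unadjusted p under 0.05 there were 1 (AlaRS at −0.60), 0, 0 and 2 (GluProRS at −0.75, SE 0.21, adjusted p = 0.280, and TrpRS-m at −0.95). In the same order, 6.28%, 7.62%, 3.68% and 9.2% of all tested genes passed this p. Whether foxo knockdown acted differently in Tsc1 than in wt clones under NR was also tested, and 0 members were called (0% of all tested genes), as when its action in Tsc1 clones was compared between NR and normal food (0%). Neither had a member at an unadjusted p under 0.05 (4.11% and 5.17% of all tested genes). The smallest edgeR adjusted p were 0.9362 and 0.9797. DESeq2 called 0 in both, against 0.203% and 0.105% of the genes it gave an adjusted p.

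Genes that work with the synthetases were listed as well. Of 14 partners (scaffold proteins, the amidotransferase that makes mitochondrial Gln-tRNA, elongation factors and others), 12 were tested, with a median log2 FC of 0.61 in Tsc1 against wt, 5 at an unadjusted p under 0.05 and 1 called, against the 19.2% and 7.51% of all tested genes above, whose median was 0.15. The call was GatB, a subunit of that amidotransferase (log2 FC 0.85, edgeR adjusted p = 0.0595), with 4.98 to 29.7 CPM (median 7.65) in Tsc1 clones and 1.20 to 10.8 CPM (median 6.64) in wt clones. It also rose in Tsc1 foxoRi against foxoRi under NR (2.47, edgeR adjusted p = 0.150), where 1.18% of all tested genes were called. That pair has only 2 foxoRi libraries, and the call was not followed over the alternatives. The scaffold genes AIMP1 (0.63, adjusted p = 0.0947) and AIMP2 (0.35, adjusted p = 0.130) and mEFTu1, a mitochondrial elongation factor (0.63, adjusted p = 0.0332), passed the adjusted p without the fold.

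Of 16 genes of the amino acid stress response, 13 were tested, with a median log2 FC of 0.38, 6 at an unadjusted p under 0.05 and 3 called in Tsc1 against wt, beside the same 19.2% and 7.51% of all tested genes. Nmdmc, a mitochondrial folate enzyme, rose (2.01, edgeR adjusted p = 0.00178), with a median of 15.9 CPM (0.322 to 30.7) in Tsc1 and 3.53 CPM (0.738 to 11.8) in wt clones. Sesn, the fly sestrin, rose (2.35, adjusted p = 0.00404), with a median of 4.39 CPM (2.12 to 9.37) in Tsc1 and 0.770 CPM (0 to 6.87) in wt clones. Thor, the 4E-BP that represses translation, was called (3.68, adjusted p = 0.0389) at very low levels, with a median of 1.52 CPM (0 to 20.5) in Tsc1 and 0 CPM (0 to 2.30) in wt clones. The transcripts of crc (log2 FC −0.26, adjusted p = 0.277) and Gcn2 (0.16, adjusted p = 0.556) did not pass. In single pairs, Sesn rose in Tsc1 against wt under NR (3.25, edgeR adjusted p = 0.185), where 0.665% of all tested genes were called. Shmt (1.15), Nmdmc (2.59) and Xrp1 (0.86) rose in Tsc1 foxoRi against foxoRi on normal food (edgeR adjusted p = 0.178 to 0.183), where 0.791% were called. These calls lie near the threshold and were not followed over the alternatives. Neither list had a gene called in any comparison of foods or of knockdown.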

How the data were processed

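RNA of single eye disc clones was made into libraries with the Ovation SoLo kit, and the authors trimmed reads with Trimmomatic, mapped them to BDGP6 with STAR and counted them per gene with featureCounts (versions and strand setting not given in the sources used here). The table the authors deposited holds estimated counts without normalization. As 17.1% of its values had decimals, the table was rounded before testing. Gene identifiers were matched to the BDGP6.54 annotation (17253 of 17559 matched), which also gave coordinates and exon lengths.

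Counts of 29 libraries in 8 groups were fitted together in edgeR 4.0.16 (R 4.3.3) with TMM normalization, filterByExpr by group, the quasi-likelihood test and, over the 13524 genes tested, Benjamini-Hochberg adjustment. The study names edgeR, an ANOVA and the thresholds of fold and adjusted p used here. A figure legend of the study adds a cut on p, which was not applied here. The study's normalization, filter and further details of its model are not given in the sources used here. The study tested 29 libraries, and the 2 left out here are those an earlier analysis of these data identified from its plot of samples. Calls required an adjusted p below 0.2 with a log2 FC above 0.8 in size. Comparisons were the 12 pairs of groups that differ in 1 factor, the mean of the 4 pairs for each factor, and 3 differences between pairs. The SE was computed from the log2 FC and the F statistic of the test, so it adds nothing to the p. CPM used the TMM library sizes.

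Values per library are given for members called in any comparison, the 3 with the smallest p in each mean of 4 pairs, the most and least abundant of each class, and the most and least variable. Beta-PheRS was added after its values were seen. Partners were AIMP1, AIMP2, AIMP3, Slimp, GatA, GatB, GatC, Dtd, eEFSec, eEF1alpha2, mEFTu1 and mEFTu2, with Mtfmt and eEF1alpha1 not analysed here. Stress genes were crc, Gcn2, PEK, Thor, Shmt, aay, Nmdmc, trbl, Sesn, PPP1R15, Xrp1, Irbp18 and Gclc, with AsnS, Phgdh and Psat not analysed here. The hemocyte markers Hml, He, NimC1 and Pxn summed to 0.327 to 20.6 CPM in Tsc1 and 0 to 58.6 CPM in wt clones. The members and all lists were chosen with earlier results of these data known. The groupings by catalytic class and by the mammalian complex are from general knowledge.

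Alternatives were DESeq2 1.42.0 as the test or for size factors, no filter, only the groups compared, protein-coding genes only, all 31 libraries (12024 genes tested), an adjusted p under 0.05, a replicate block and each library left out. Tables and plots were made with Python 3.11.15, numpy 2.4.6, pandas 2.3.3 and matplotlib 3.10.9.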

Additional observations from a re-analysis of the deposited data

Results flagged for a closer look

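In 9 of 102 sets of 4 libraries (a gene or class sum in a group), over the 15 genes given per library and the 2 class sums, 1 library lay far from the other 3 by Dixon's criterion, which chance gives in about 1 set in 20. CysRS was low in Tsc1 replicate 2 under NR (20.8 CPM, others 30.2 to 32.0 CPM) and high in foxoRi replicate 1 on normal food (23.7 CPM, others 11.8 to 13.2 CPM). ThrRS was high in Tsc1 replicate 1 under NR (108 CPM, others 76.4 to 80.7 CPM), low in wt replicate 3 under NR (47.5 CPM, others 69.1 to 72.6 CPM) and high in foxoRi replicate 4 on normal food (79.2 CPM, others 55.0 to 58.3 CPM). SerRS was also high in that last library (60.4 CPM, others 38.5 to 40.0 CPM). MetRS was high in Tsc1 foxoRi replicate 1 on normal food (44.0 CPM, others 27.8 to 30.2 CPM), ValRS low in Tsc1 replicate 4 on normal food (32.6 CPM, others 54.4 to 58.4 CPM) and AspRS high in foxoRi replicate 2 on normal food (89.1 CPM, others 61.0 to 62.6 CPM).

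The 2 libraries left out of the main tests held many values beyond the range of the 29 others, scaled over all 31. Replicate 3 of foxoRi under NR was above that range for 5 of the 33 members and below it for 20, with 15 members at 0, and replicate 4 of wt on normal food was above it for 2 and below it for 15, with 11 at 0. Above the range in replicate 3 of foxoRi under NR were AspRS (584.5 CPM, others 43.1 to 91.2 CPM), IleRS (430.0 CPM, others 45.0 to 126 CPM), ThrRS (352 CPM, others 48.6 to 111 CPM), GluProRS (276 CPM, others 64.3 to 139.8 CPM) and LysRS (191 CPM, others 28.5 to 91.5 CPM). In replicate 4 of wt on normal food they were HisRS (73.0 CPM, others 17.9 to 55.9 CPM) and IleRS-m (32.0 CPM, others 0 to 18.2 CPM). CysRS and AlaRS-m were at 0 in the foxoRi library, and AlaRS-m also in the wt library. In the first of these libraries the cytoplasmic sum was 1909 CPM and the mitochondrial sum 38.2 CPM, and in the second they were 524 and 107 CPM.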

How the results depend on the processing

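None of the 12 log2 FC and 3 class medians followed over the alternatives changed direction, and the other values were not followed. In the mean of 4 pairs of Tsc1 against wt, CysRS had a log2 FC of 0.96 to 1.34 (edgeR or DESeq2 adjusted p = 5.32e-09 to 0.0107) and AlaRS-m of 0.91 to 1.32 (0.00185 to 0.167) over 39 alternatives, and leaving out any 1 library gave 2 called members each time. With all 31 libraries this mean called 4 members (ValRS at 0.84 and alpha-PheRS at 0.81 in addition), against 6.99% of the 12024 genes tested in that fit. The pairs called 6 in Tsc1 foxoRi against foxoRi under NR (15.1% of genes), 0 on normal food (0.141%), 4 in NR against normal food in foxoRi clones (3.74%) and 3 in foxoRi against wt under NR (3.68%). An adjusted p under 0.05 left 0 members in both pairs of Tsc1 foxoRi against foxoRi. DESeq2 called 2 members in Tsc1 against wt under NR, 3 and 2 in Tsc1 foxoRi against foxoRi under NR and on normal food, and 1 in NR against normal food in Tsc1 foxoRi clones. Of the settings added after the data were seen, dropping the fold threshold gave 11 in the mean, the photoreceptor covariate gave 1 (CysRS) in Tsc1 against wt on normal food and 0 in both pairs with knockdown, leaving out the 6 libraries rich in photoreceptor markers gave 0 in both (with 1 foxoRi library left under NR), and the number of genes as a covariate gave 2 in Tsc1 foxoRi against foxoRi on normal food. Leaving out each library gave 0 to 2 members in Tsc1 against wt under NR (2 without Tsc1 replicate 2, 1 without wt replicate 1 or 3), 0 to 2 in Tsc1 foxoRi against foxoRi under NR (2 without Tsc1 foxoRi replicate 4), 0 to 2 on normal food (2 without Tsc1 foxoRi replicate 4) and 0 to 1 in foxoRi against wt on normal food (1, GluProRS, without wt replicate 1). Apart from the 11 without a fold threshold, the counts of the added settings and of leaving out each library lack a share of all tested genes. They are therefore not set against the background. The causes were not tested. The deviations of same-numbered replicates from their group means had r = −0.147 to 0.287 over pairs, and differently numbered replicates were not compared. A fit with a replicate block changed no call. In that fit CysRS was at 1.23 (edgeR adjusted p = 3.32e-05) in the mean and at 1.83 (0.0588) and 1.27 (0.0542) in the knockdown pairs. The mitochondrial genes had a median of 65 counts per library, and GluRS-m had at most 3 in 6 libraries.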
